A study of Mus musculus with 6 samples.

Results

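The genes described here are 10 that carry dietary fat through the absorptive epithelial cell: the apolipoprotein genes Apoa1, Apoa4, Apoc3 and Apob, the lipid transfer protein gene Mttp, the acyltransferase genes Mogat2, Dgat1 and Dgat2, and the fatty acid binding protein genes Fabp1 and Fabp2. They were taken by symbol from the deposited expression table, which held all 10 among its 25339 genes. RNA was sequenced from colon of mice that received lenvatinib, an oral tyrosine kinase inhibitor that acts mainly on receptors for vascular and fibroblast growth factors (3 libraries), or its solvent DMSO (3 libraries). The labels call the 3 libraries of each group biological replicates and give neither the strain, age, dose, time nor genotype of the mice, nor whether colitis was induced, although the series title concerns colitis. The 10 genes were selected on their measured FPKM in these same libraries, lenvatinib against DMSO, so their differences between the groups are given as values and not as tests.

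Fat is digested in the gut to fatty acids and monoacylglycerol, which enterocytes take up, bind to fatty acid binding proteins and rebuild into triglyceride on the endoplasmic reticulum. MOGAT2 makes diacylglycerol and DGAT1 or DGAT2 adds the last fatty acid. MTTP then loads the triglyceride onto apolipoprotein B to form a chylomicron, which leaves the cell with apolipoproteins A-I, A-IV and C-III on its surface. In the healthy gut this pathway belongs mainly to the small intestine, and the colon takes up little fat.

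The levels are FPKM (fragments per kilobase of gene, scaled to library size), which correct for gene length and library size, so levels of different genes can be compared. The values were whole multiples of the worth of 1 read, from which the reads behind every value were recovered, for library totals of 37996789 to 39623411 reads. Libraries 2 and 3 of each group were nearly alike: their squared deviation was 2.29 and 2.53 times counting noise (median over genes), against 10.2 to 25.5 for the other 13 pairs. DMSO 1 stood apart in sex-linked transcripts, with Ddx3y at 6.54 FPKM where the other 5 libraries were at 0, and Xist at 0.00147 against 15.9 to 19.8 FPKM. The colonocyte gene Car1 measured 7590 to 10357 FPKM in lenvatinib libraries and 7823 to 9567 FPKM in DMSO libraries, and the 14 colonocyte and colon markers summed to 9339 to 12866 FPKM with lenvatinib and 9849 to 11572 FPKM with DMSO. None of the 11 tested passed in limma (3 at an unadjusted p below 0.05), but Slc26a3 (205 to 351 FPKM with lenvatinib, 165 to 195 FPKM with DMSO), Scnn1b (2.03 to 3.53 FPKM with lenvatinib, 0.571 to 1.52 FPKM with DMSO) and Krt20 (639 to 717 FPKM with lenvatinib, 775 to 790 FPKM with DMSO) did not overlap. The distal colon genes Hoxb13 and Hoxd13 were at or near 0 in all 6. In such bulk tissue, fewer cells of a type and less RNA per cell cannot be told apart.

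The start regions of the 5 genes that the results turn on are shown because Apoa1 and Apoa4 lie in the same gene cluster yet reached very different levels, while Apob, Mttp and Fabp2 mark assembly and fatty acid binding. RefSeq's promoter table (build GRCm38.p6) held 6 of the 10 genes, Fabp1 being the other one. The bases run 5′ to 3′ on the gene's strand and end just before the annotated gene: Apoa1 at chr9:46228380-46228629 on the plus strand, Apoa4 at chr9:46240594-46240843 (plus), Apob at chr12:7977427-7977628 (plus), Mttp at chr3:138143419-138143668 (minus) and Fabp2 at chr3:122894822-122895071 (plus). Capitals mark matches, on either strand, to motifs of at least 6 letters: CAAAGTNCA for HNF4 factors, AGATAA for GATA factors and TATAAA for the TATA box.
Apoa1: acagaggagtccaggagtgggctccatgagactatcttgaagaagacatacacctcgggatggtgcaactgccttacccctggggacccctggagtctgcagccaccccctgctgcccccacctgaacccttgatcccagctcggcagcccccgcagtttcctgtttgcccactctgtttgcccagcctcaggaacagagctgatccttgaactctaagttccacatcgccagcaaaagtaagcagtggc
Apoa4: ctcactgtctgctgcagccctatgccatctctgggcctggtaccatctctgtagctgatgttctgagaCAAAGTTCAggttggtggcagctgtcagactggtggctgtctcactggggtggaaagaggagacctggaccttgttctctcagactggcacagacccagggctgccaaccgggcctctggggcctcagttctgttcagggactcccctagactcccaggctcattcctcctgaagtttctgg
Apob: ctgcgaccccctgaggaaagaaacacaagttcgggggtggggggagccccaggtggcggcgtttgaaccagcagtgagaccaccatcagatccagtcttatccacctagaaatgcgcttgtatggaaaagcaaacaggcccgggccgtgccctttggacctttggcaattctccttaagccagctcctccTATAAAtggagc
Mttp: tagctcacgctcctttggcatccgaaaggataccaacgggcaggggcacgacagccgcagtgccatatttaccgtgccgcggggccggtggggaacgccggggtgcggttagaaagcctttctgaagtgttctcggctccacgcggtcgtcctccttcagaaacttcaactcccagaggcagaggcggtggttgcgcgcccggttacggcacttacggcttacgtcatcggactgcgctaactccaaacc
Fabp2: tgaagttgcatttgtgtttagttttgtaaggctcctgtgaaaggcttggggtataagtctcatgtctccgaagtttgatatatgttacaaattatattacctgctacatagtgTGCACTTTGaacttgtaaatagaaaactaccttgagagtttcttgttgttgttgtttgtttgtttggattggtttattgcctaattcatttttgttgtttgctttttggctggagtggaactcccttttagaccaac

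Among these 5 windows, Apoa4 and Fabp2 held the HNF4 letters and Apob held TATAAA. No match overlapped another, and the windows of Apoa1 and Mttp held no match. Of 32851 such 250-base windows in the table, 1.19% held the HNF4 letters, 9.99% the GATA letters and 12.4% TATAAA. A match is a run of letters and not a measured binding site, and HNF4 factors also bind sequences that these letters do not cover. The genes for the factors themselves were measured: Hnf4a was at 194, 219 and 223 FPKM in lenvatinib 1 to 3 and 208, 223 and 229 FPKM in DMSO 1 to 3, so the groups overlapped, and Gata4, which marks the proximal small intestine, stayed at or below 0.0854 FPKM in every library. Of the same families, Gata6 was at 11.1 to 12.6 FPKM with lenvatinib and 10.6 to 11.6 FPKM with DMSO. Hnf4g was at 9.50 to 13.2 FPKM with lenvatinib and 9.07 to 9.85 FPKM with DMSO, and both genes overlapped between the groups.

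Among the apolipoproteins, Apoa1 stood out. It encodes apolipoprotein A-I, the main protein of high density lipoprotein, made by liver and small intestine. Apoa1 measured 6.16, 40.0 and 40.3 FPKM in lenvatinib 1 to 3, against 0.506, 0.230 and 0.208 FPKM in DMSO 1 to 3. These levels rest on 233, 1543 and 1543 reads with lenvatinib and on 19, 9 and 8 reads with DMSO. Every lenvatinib library was above every DMSO library, but lenvatinib 1 held only 15.4% of the level of lenvatinib 2 and 15.3% of that of lenvatinib 3. The mean was 28.8 ± 19.6 FPKM with lenvatinib and 0.315 ± 0.166 FPKM with DMSO (SD, n = 3 each), a ratio of 91.6, and lenvatinib 1 alone stood 19.6 times above the DMSO mean. The ratio was 128 without lenvatinib 1 and 132 without DMSO 1. On the log2(FPKM + 1) scale used for all fold changes below, which understates changes of low genes, the difference was 4.13 (SE 0.68).

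Apoa4 encodes an apolipoprotein that rodents make mainly in small intestinal enterocytes and place on chylomicrons. It stayed low, at 0.894, 0.569 and 0.728 FPKM in lenvatinib 1 to 3 (57, 37 and 47 reads) and 0.0790, 0.0757 and 0.0462 FPKM in DMSO 1 to 3 (5, 5 and 3 reads). The groups did not overlap, and unlike Apoa1 its highest value was in lenvatinib 1. Summed over each group and corrected for depth, the reads were 10.9 times as many with lenvatinib, with a 95% interval of 6.17 to 21.0 that covers counting error only. The ratio of Apoa1 to Apoa4, both per length, was 6.89, 70.3 and 55.4 in lenvatinib 1 to 3 and 6.41, 3.04 and 4.50 in DMSO 1 to 3, so lenvatinib 1 lay close to DMSO 1 in this ratio and the other lenvatinib libraries far above it.

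Apoc3 encodes an inhibitor of lipoprotein lipase, and its transcript was barely detected. It measured 0.0700, 0.789 and 0.484 FPKM in lenvatinib 1 to 3, from 2, 23 and 14 reads. It had 0, 0 and 3 reads in DMSO 1 to 3, where 0 reads allow up to 0.106 FPKM in DMSO 1 and 0.101 FPKM in DMSO 2. The groups overlapped, because lenvatinib 1 was below the 0.103 FPKM of DMSO 3. Together 39 reads with lenvatinib stood against 3 with DMSO, a ratio of 13.1 with a counting interval of 4.15 to 66.0.

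Apoa1, Apoc3, Apoa4 and Apoa5 follow each other on chromosome 9 in RefSeq's gene order. Apoa5, a liver regulator of plasma triglyceride, was at 0 in all 6 libraries, so within the same cluster the lenvatinib libraries ran from 0 for Apoa5 through under 1 FPKM for Apoc3 and Apoa4 to as much as 40.3 FPKM for Apoa1. Sik3, the gene just before Apoa1, measured 9.505, 9.71 and 10.1 FPKM in lenvatinib 1 to 3 and 8.91, 8.87 and 9.34 FPKM in DMSO 1 to 3. Zpr1, just after Apoa5, measured 10.6, 8.83 and 8.45 FPKM in lenvatinib 1 to 3 and 9.005, 10.8 and 10.1 FPKM in DMSO 1 to 3. Neither neighbour passed the test across genes (limma with Benjamini-Hochberg adjustment, adjusted p = 0.335 and 0.591). The groups overlapped for Zpr1 but not for Sik3, and 27.5% of all genes tested did not overlap. In a wider view, 26 genes within 3 places of any of the 10 genes were tested and none passed, by limma at a threshold of 0.05, with 7 at an unadjusted p below 0.05, a level that 2586 of all genes tested (21.96%) reached.

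**Figure D1:**
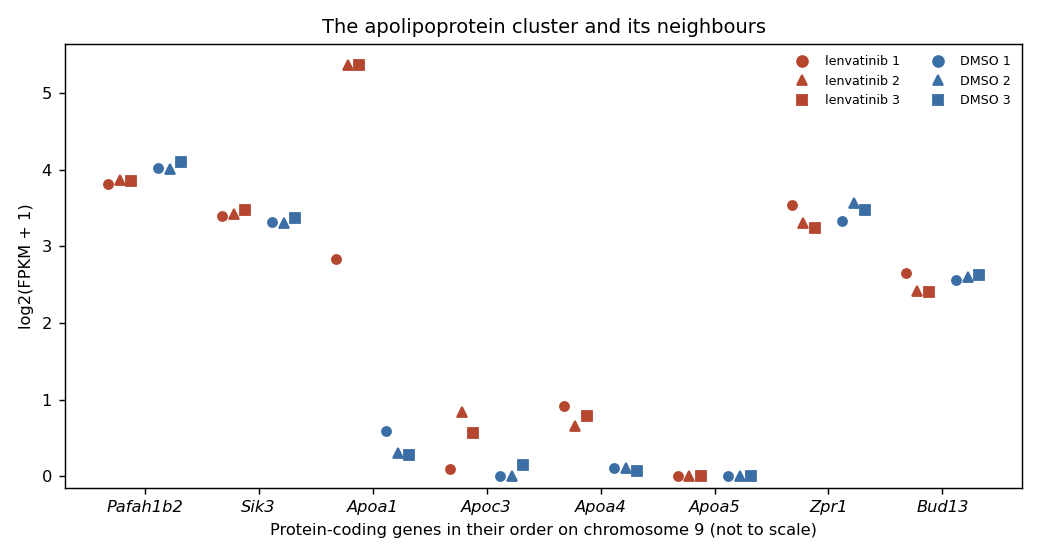
Levels as log2(FPKM + 1) for 8 protein-coding genes in their order on chromosome 9, lenvatinib libraries in red and DMSO libraries in blue, with a marker shape for each library number. Apoa1 is high in lenvatinib 2 and 3 and intermediate in lenvatinib 1, Apoc3 and Apoa4 stay low, and Apoa5 is at 0. Pafah1b2, Sik3, Zpr1 and Bud13 differ little between the groups, Pafah1b2 and Sik3 without overlap.

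Apob and Mttp encode the scaffold of the chylomicron and the protein that fills it with lipid. Apob was already abundant with DMSO and measured 19.4, 22.02 and 21.5 FPKM in lenvatinib 1 to 3 and 11.2, 14.7 and 15.1 FPKM in DMSO 1 to 3. The means were 21.0 ± 1.40 FPKM with lenvatinib and 13.6 ± 2.16 FPKM with DMSO (SD, n = 3 each), a ratio of 1.54 and a log2 difference of 0.60 (SE 0.12). All lenvatinib libraries lay above all DMSO libraries.

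Mttp was low with DMSO and several times higher with lenvatinib. It measured 2.96, 3.34 and 3.42 FPKM in lenvatinib 1 to 3 (540, 620 and 630 reads), against 0.277, 0.286 and 0.432 FPKM in DMSO 1 to 3 (50, 54 and 80 reads). The ratio of means was 9.77 and the log2 difference 1.67 (SE 0.09), and the 3 lenvatinib libraries were close to each other, with lenvatinib 1 at 88.9% of lenvatinib 2. Apob exceeded Mttp 6.55, 6.60 and 6.31 times in lenvatinib 1 to 3, against 40.4, 51.3 and 34.9 times in DMSO 1 to 3. The ratio of the scaffold to its loading protein was thus nearly constant across the lenvatinib libraries, although they differed in Apoa1, and it lay below every DMSO library.

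The acyltransferases differed less. Mogat2, whose product makes diacylglycerol from absorbed monoacylglycerol, measured 7.11, 8.72 and 8.87 FPKM in lenvatinib 1 to 3 and 4.003, 4.43 and 3.86 FPKM in DMSO 1 to 3. The groups did not overlap, the ratio of means was 2.01, and the log2 difference was 0.85 (SE 0.10). Dgat1, the main triglyceride-forming enzyme of the mouse small intestine, measured 15.8, 18.2 and 17.1 FPKM in lenvatinib 1 to 3 and 14.5, 14.7 and 13.2 FPKM in DMSO 1 to 3. The groups were apart by a narrow margin, with a ratio of 1.21.

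Dgat2, an unrelated enzyme of the same reaction that also serves liver and fat tissue, measured 57.1, 65.4 and 64.0 FPKM in lenvatinib 1 to 3 and 48.4, 57.4 and 54.8 FPKM in DMSO 1 to 3. The groups overlapped, since lenvatinib 1 was just below DMSO 2. Adipocyte markers summed to 173, 104 and 98.6 FPKM in lenvatinib 1 to 3 and 42.8, 141 and 141 FPKM in DMSO 1 to 3 (8 of 8 in the table), so within DMSO libraries DMSO 1 was lowest for both, while lenvatinib 1 had the highest marker sum and the lowest Dgat2 of the lenvatinib libraries. The part of fat tissue in the Dgat2 level was not tested. Dgat2 exceeded Dgat1 3.34 to 4.14 times in all 6 libraries. The ratio of Mogat2 to Dgat1 was 0.449, 0.479 and 0.519 in lenvatinib 1 to 3 and 0.276, 0.301 and 0.292 in DMSO 1 to 3, without overlap. Mogat2 and Dgat2, which belong to the same enzyme family, are neighbours on chromosome 7, and their ratio was likewise higher with lenvatinib, at 0.125 to 0.139 with lenvatinib against 0.0705 to 0.0827 with DMSO.

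Both fatty acid binding protein genes overlapped between the groups. Fabp2, the intestinal form, was the most abundant of the 10 genes, at 302, 479 and 462 FPKM in lenvatinib 1 to 3 and 406, 535 and 540 FPKM in DMSO 1 to 3. The groups overlapped and library 1 was lowest in both, and the means were 414 ± 97.7 FPKM with lenvatinib and 494 ± 76.1 FPKM with DMSO (SD, n = 3 each), a log2 difference of -0.27 (SE 0.21). Fabp1, the liver form, which small intestinal enterocytes also make in large amounts, was almost absent. It measured 0.459, 0.2 and 0.101 FPKM in lenvatinib 1 to 3 (9, 4 and 2 reads) and 0.668, 0.0986 and 0.301 FPKM in DMSO 1 to 3 (13, 2 and 6 reads). Here the groups overlapped fully and library 1 was highest in both groups. The ratio of summed reads was 0.717 with a counting interval of 0.344 to 1.46, and the ratio of mean FPKM was 1.27 without DMSO 1 and 0.423 without lenvatinib 1, so no direction can be given.

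**Figure D2:**
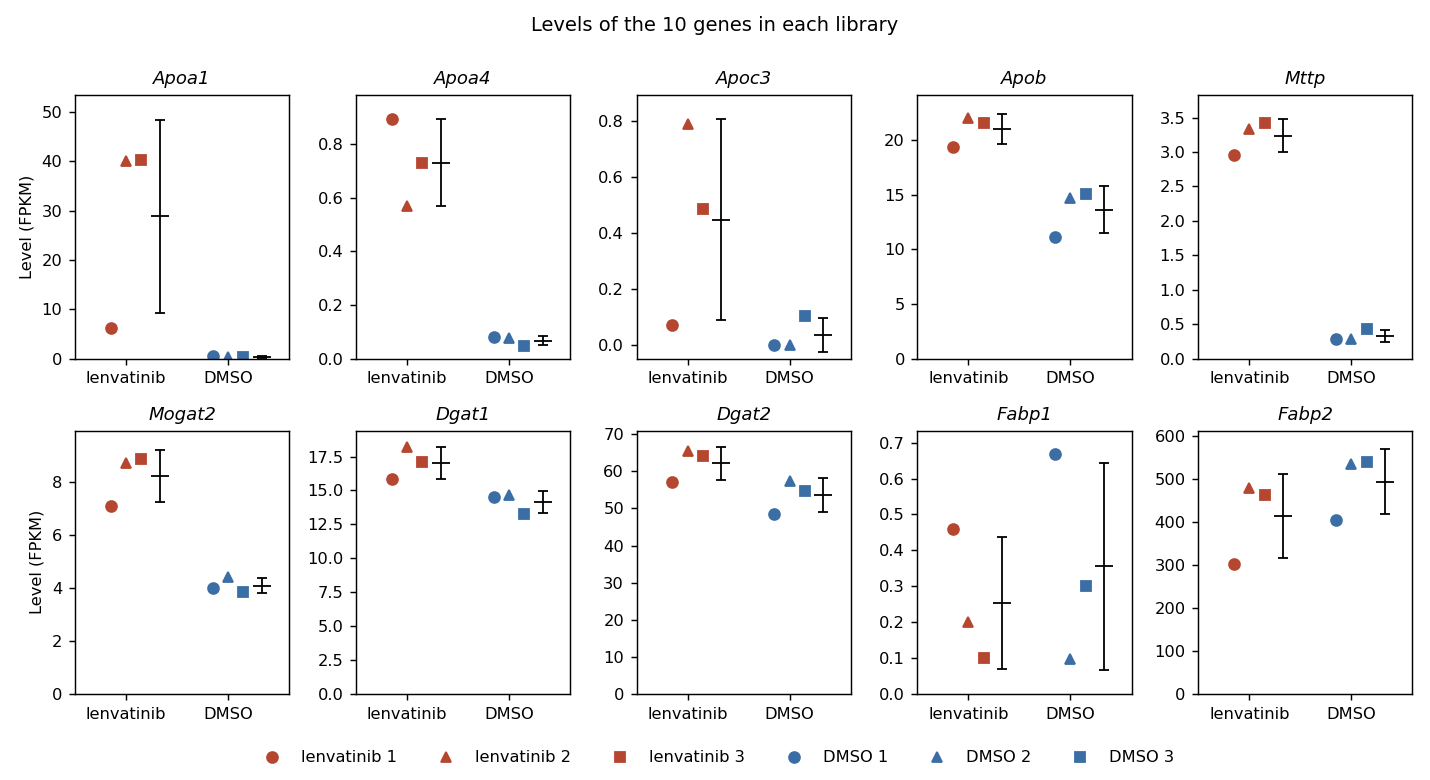
FPKM of the 10 genes in each library on a linear axis of its own per gene, lenvatinib left (red) and DMSO right (blue), with the mean and SD of 3 libraries in black. Apoa1, Apoa4, Apob, Mttp, Mogat2 and Dgat1 are higher in every lenvatinib library than in any DMSO library, while Apoc3, Dgat2, Fabp1 and Fabp2 overlap.

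Of the 10 genes, 7 averaged at least 1 FPKM over the 6 libraries and entered the test across 11774 genes, while Apoa4, Apoc3 and Fabp1 did not. Apoa1 and Mttp, with DMSO means of 0.315 and 0.331 FPKM, reached this filter only through their lenvatinib libraries. Past an adjusted p of 0.05 in limma were 3 of the 7, all higher with lenvatinib (Apoa1, Mttp and Mogat2), where 2.03% of all genes tested were called, 1.10% higher and 0.934% lower. Groups that did not overlap were found for 5 of the 7, against 27.5% of all genes tested. The count of 3 was 6 without lenvatinib 1, 2 without DMSO 1 and 1 without any of the other 4 libraries. As the genes were chosen with this comparison known, nothing is read from these shares.

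By level the order with lenvatinib was Fabp2, Dgat2, Apoa1, Apob, Dgat1, Mogat2, Mttp, Apoa4, Apoc3 and Fabp1. With DMSO it was Fabp2, Dgat2, Dgat1, Apob, Mogat2, Fabp1, Mttp, Apoa1, Apoa4 and Apoc3. The ranges of neighbours overlapped for Apoa1 with Apob, Apoa4 with Apoc3 and Apoc3 with Fabp1 under lenvatinib, and for Dgat1 with Apob, Fabp1 with Mttp, Mttp with Apoa1 and Apoa4 with Apoc3 under DMSO. Among all 25339 genes, Apoa1 took place 2301 by mean level with lenvatinib and place 13758 with DMSO, while Fabp2 took place 154 with lenvatinib and place 129 with DMSO.

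Markers of the small intestine were higher with lenvatinib as well. Markers of small intestinal enterocytes summed to 310 to 425 FPKM in lenvatinib libraries and 100 to 128 FPKM in DMSO libraries (19 of 19 in the table). Of the 14 tested, 7 rose and none fell. Sis, Naaladl1 and Slc7a9, with DMSO means of 0.0702, 0.890 and 0.102 FPKM, reached the filter of 1 FPKM only through their lenvatinib libraries. Fabp6 encodes the bile acid carrier of the ileum and rose to 161, 160 and 148 FPKM in lenvatinib 1 to 3, against 1.44, 2.28 and 2.27 FPKM in DMSO 1 to 3 (limma adjusted p = 2.01e-05). The sucrase gene Sis, the aminopeptidase gene Enpep, the peptidase gene Naaladl1, the ileal bile acid transporter Slc10a2, the amino acid transporter Slc7a9 and the chemokine gene Ccl25 rose as well. Without any 1 of DMSO 2, DMSO 3, lenvatinib 2 and lenvatinib 3 the calls of Sis, Enpep, Naaladl1, Slc10a2 and Ccl25 were lost, and those of Sis, Slc10a2 and Ccl25 also with libraries 2 and 3 of each group as a random block. Over 18 alternatives the call was lost in 10 for Ccl25, 9 for Sis, 8 for Slc10a2 and 6 each for Enpep and Naaladl1. It was lost in 2 for Slc7a9 and 0 for Fabp6. The call of Sis was lost without DMSO 1 too. Some listed genes were at or near 0 in all 6 libraries, with Lct, for lactase, at up to 0.0296 FPKM in lenvatinib libraries and 0.0123 FPKM in DMSO libraries, and Slc2a2, a sugar transporter, at no more than 1 read per lenvatinib library and 4 reads per DMSO library. Others were present in both groups and did not pass: Rbp2 measured 12.1 to 26.2 FPKM with lenvatinib and 10.2 to 11.2 FPKM with DMSO, Alpi 13.1 to 26.9 FPKM with lenvatinib and 11.8 to 13.8 FPKM with DMSO, and Ada 2.56 to 3.45 FPKM with lenvatinib and 2.86 to 3.98 FPKM with DMSO (Alpi and Ada were chosen after their values were seen).

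Paneth cell genes, which mark small intestinal crypts, were higher for the most part: 6 of 8 tested rose, among them Defa24, Lyz1 and Mmp7. Ang4 and Itln1 did not pass, and Ang4 lay the other way without overlap, at 6.69, 13.9 and 14.3 FPKM in lenvatinib 1 to 3 against 1672, 51.2 and 55.3 FPKM in DMSO 1 to 3. The goblet cell marker sum was likewise highest in DMSO 1, at 8638 FPKM against 4064 and 4235 FPKM in DMSO 2 and 3. Summed over the 8 markers the levels were 181 to 276 FPKM in lenvatinib libraries and 60.2 to 1691 FPKM in DMSO libraries, where Ang4 made up 1672 of the 1691 FPKM of DMSO 1. Of both marker lists 13 of 22 tested genes rose, a count that was 10 with libraries 2 and 3 as a random block, 17 without lenvatinib 1, 13 without DMSO 1 and 8 without any of the other 4 libraries. Of these, Sis, Naaladl1, Slc7a9, Defa24, Defa30, Defa17, Mmp7 and Mptx2 had DMSO means below the filter of 1 FPKM. They were tested only because their lenvatinib libraries were high, so their part of the count is not read as a result. The part of small intestinal cells in the levels of the 10 genes was not tested. Liver, which makes most of these apolipoproteins, was looked for too: Alb, for albumin, measured 0.0373 to 0.0380 FPKM in lenvatinib libraries and 0.0128 to 0.0996 FPKM in DMSO libraries. The 8 hepatocyte markers in the table (of 10) summed to 33.1 to 66.5 FPKM with lenvatinib and 11.2 to 27.1 FPKM with DMSO. The sums did not overlap, and nearly all came from Hp and Ttr, which the gut also expresses and neither of which passed. Hp measured 57.8, 7.78 and 7.20 FPKM in lenvatinib 1 to 3 and 3.56, 13.0 and 12.0 FPKM in DMSO 1 to 3. Ttr measured 7.63, 25.6 and 25.6 FPKM in lenvatinib 1 to 3 and 6.65, 13.3 and 12.5 FPKM in DMSO 1 to 3. The part of liver in the levels of the 10 genes was not tested. Goblet cell markers summed to 2536 to 3524 FPKM with lenvatinib and 4064 to 8638 FPKM with DMSO. All 7 tested had a negative log2 difference (median -0.68, 4 at an unadjusted p below 0.05), and 1 fell, the secretory gene Agr2, at 272 to 288 FPKM with lenvatinib against 509 to 677 FPKM with DMSO. Its call was lost without any 1 of DMSO 2, DMSO 3, lenvatinib 2 and lenvatinib 3, and the part of goblet cells in the levels of the 10 genes was not tested. The pancreatic genes Pnlip and Prss2 were at 0 in all 6 libraries.

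Within the lenvatinib group the genes fell into different patterns across libraries. In lenvatinib 1, Mttp, Apob, Dgat1, Dgat2 and Mogat2 were at 80.2 to 92.7% of lenvatinib 2 or 3, and Fabp6 was at 101% of lenvatinib 2. Naaladl1, Sis and Enpep were at 42.1 to 53.5% of lenvatinib 2, and Apoa1 at 15.3 and 15.4%. Apoa4 went the other way, at 157% of lenvatinib 2 and 123% of lenvatinib 3. Fabp6 exceeded Mttp 54.3, 47.9 and 43.2 times in lenvatinib 1 to 3, while it exceeded Apoa1 26.1, 3.998 and 3.66 times.

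**Figure D3:**
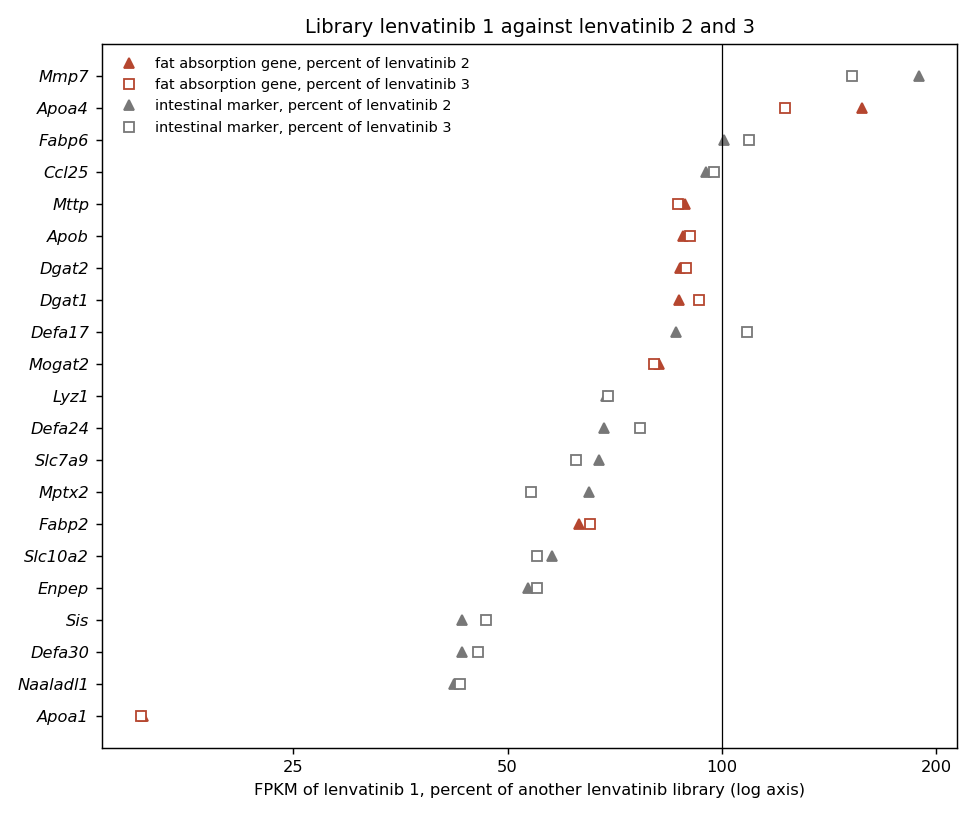
Level of each gene in lenvatinib 1 as a percent of its level in lenvatinib 2 (filled triangles) and lenvatinib 3 (open squares) on a log axis, for 8 of the 10 genes (red) and the 13 small intestinal and Paneth cell markers that rose (grey). Apoa1 lies lowest at 15.3 and 15.4%, most of the other fat absorption genes lie between 80.2 and 92.7%, and Apoa4, Mmp7 and Fabp6 lie above 100% of both, as Defa17 does of lenvatinib 3 alone.

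For each of the 7 tested genes, the 3 other genes with the highest Pearson correlation of log2(FPKM + 1) over the 6 libraries were listed. Compared were tested genes with a proper symbol whose SD over the libraries was at least 0.5 of that of the gene itself, which left 52 genes for Apoa1, 867 for Mttp, 2618 for Mogat2, 4156 for Apob, 5068 for Fabp2, 9517 for Dgat1 and 9591 for Dgat2. With 6 libraries, of which 2 pairs are nearly alike, many genes reach a high value, so these are descriptions without a p. Apoa1 was closest to the Paneth cell defensin genes Defa29, Defa20 and Defa39 (r = 0.998, 0.991 and 0.984), which were at 0 in all DMSO libraries. Reads of such near-identical defensins could be split between copies. Mttp was closest to Bmp3, Fabp6 and Slc25a34 (r = 0.997, 0.996 and 0.995). Mogat2 was closest to Acaa2, a thiolase of mitochondrial fatty acid oxidation, then to the clock repressor gene Nr1d2 and the integrin gene Itga7 (0.998, 0.995 and 0.994). Apob was closest to Bglap3, Btnl1 and Tm4sf20 (0.998, 0.993 and 0.993). Among the rest, Dgat1 was closest to Rchy1, Dgat2 to Surf1 and Fabp2 to the phosphate transporter family gene Slc17a4 (0.993, 0.992 and 0.992).

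Few other genes of fat absorption passed the test. Of 63 further pathway genes, 57 were tested in limma, 2 rose, none fell and 55 did not pass, against 2.03% called among all genes, and 18 had an unadjusted p below 0.05, which 21.96% of all genes tested had. Their median log2 difference was 0.10, against -0.07 over all genes tested. Nr1h4, for the bile acid receptor FXR, rose and measured 62.1, 54.2 and 55.5 FPKM in lenvatinib 1 to 3 and 32.9, 32.1 and 33.3 FPKM in DMSO 1 to 3. All lenvatinib libraries lay above all DMSO libraries (log2 difference 0.79, SE 0.07, limma adjusted p = 0.00539). Cideb, for a lipid droplet protein that helps lipidate apolipoprotein B particles in mouse liver, rose to 76.6, 76.8 and 76.7 FPKM in lenvatinib 1 to 3, against 59.4, 54.8 and 54.0 FPKM in DMSO 1 to 3 (log2 difference 0.45, SE 0.06, limma adjusted p = 0.0215). The count of 2 was 0 without DMSO 2 or DMSO 3, 5 without DMSO 1, 1 without lenvatinib 2 or lenvatinib 3 and 18 without lenvatinib 1, where 4456 of all genes passed. The call of Cideb was also lost with libraries 2 and 3 of each group kept as a random block.

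By step of the pathway, none of 9 tested genes of fat uptake and fatty acid activation passed in limma (2 at an unadjusted p below 0.05), with Scarb1, a lipoprotein receptor, at 5.89 ± 0.287 FPKM with lenvatinib and 7.67 ± 0.262 FPKM with DMSO (SD, n = 3 each). Slc27a2, a fatty acid transport protein, measured 26.5 ± 4.93 FPKM with lenvatinib and 16.5 ± 3.26 FPKM with DMSO, and Slc27a4, the main such protein of enterocytes, 52.8 ± 9.25 FPKM with lenvatinib and 42.4 ± 4.84 FPKM with DMSO. None of 12 genes of glyceride and cholesterol ester synthesis passed either (3 at an unadjusted p below 0.05). There the acyltransferase gene Soat1, broadly expressed in macrophages and other cells, measured 6.39 ± 0.665 FPKM with lenvatinib and 9.91 ± 0.992 FPKM with DMSO, and its enterocyte counterpart Soat2 1.48 ± 0.639 FPKM with lenvatinib and 0.682 ± 0.0576 FPKM with DMSO. Agpat2, which makes phosphatidic acid, was at 81.6 ± 2.14 FPKM with lenvatinib and 73.9 ± 1.20 FPKM with DMSO.

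In chylomicron assembly and export 1 of 13 tested genes rose, Cideb. P4hb, for the subunit that pairs with MTTP, measured 345, 344 and 345 FPKM in lenvatinib 1 to 3 and 305, 304 and 302 FPKM in DMSO 1 to 3 (adjusted p = 0.124 in limma), so the partner of Mttp was abundant in both groups. Tm6sf2, which promotes lipidation, measured 5.02 ± 1.11 FPKM with lenvatinib and 3.38 ± 0.666 FPKM with DMSO, and the coat protein gene Sec23a 31.6 ± 2.36 FPKM with lenvatinib and 27.2 ± 1.30 FPKM with DMSO (SD, n = 3 each). Neither passed.

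Among 11 tested genes of lipid droplets and lipolysis none passed (3 at an unadjusted p below 0.05). Plin2, which coats lipid droplets, measured 37.1, 37.0 and 38.5 FPKM in lenvatinib 1 to 3 and 22.8, 28.6 and 28.1 FPKM in DMSO 1 to 3 (limma adjusted p = 0.0651). Its groups did not overlap, and it passed in 6 alternatives, among them median-ratio scaling and the fit without DMSO 1. Cidec, a droplet protein that is also an adipocyte marker, measured 18.2 ± 1.07 FPKM with lenvatinib and 9.60 ± 2.87 FPKM with DMSO, and Mgll, which splits monoacylglycerol, 31.4 ± 4.42 FPKM with lenvatinib and 19.3 ± 5.41 FPKM with DMSO (SD, n = 3 each). Of 12 tested regulators 1 rose, Nr1h4. Creb3l3, a liver and intestine transcription factor that drives Apoa4 in mice, measured 7.08, 5.85 and 5.89 FPKM in lenvatinib 1 to 3 and 4.25, 3.01 and 2.75 FPKM in DMSO 1 to 3 (limma adjusted p = 0.0640), highest in lenvatinib 1 as Apoa4 was. The part of Creb3l3 in the Apoa4 level was not tested.

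**Figure D4:**
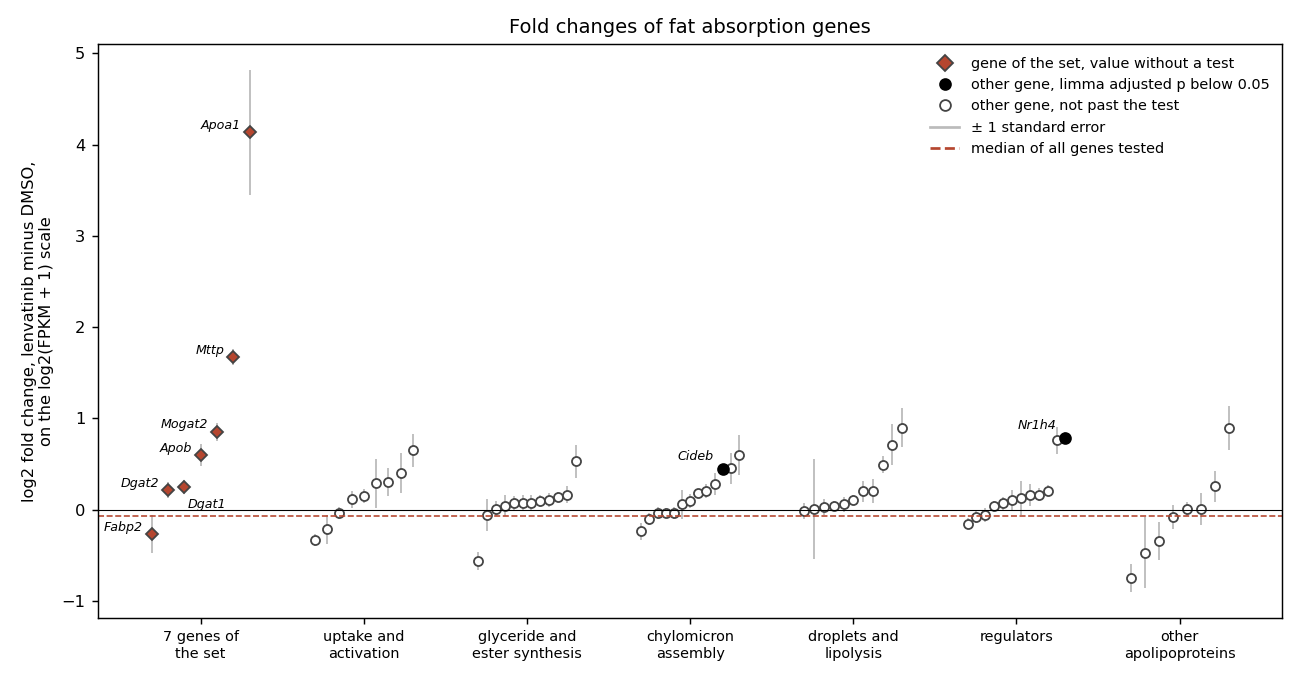
Differences in log2(FPKM + 1), lenvatinib over DMSO, with 1 standard error, for the 7 tested genes of the set and for the tested genes of 6 further lists. The dashed line is the median of all genes tested, -0.07. The 7 genes of the set (diamonds) are values without a test. In the 6 lists Nr1h4 and Cideb are drawn filled, as past the test, and the genes of these lists lie between -0.75 and 0.90.

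Sterol transporters of enterocytes were too low for the filter and are named after their values were seen. Npc1l1, the cholesterol importer, measured 0.486, 1.67 and 1.73 FPKM in lenvatinib 1 to 3 and 0.0461, 0.0276 and 0.0337 FPKM in DMSO 1 to 3. Abcg5, a subunit of the sterol exporter, measured 0.726, 1.47 and 1.56 FPKM in lenvatinib 1 to 3 and 0.0109, 0.0628 and 0.0426 FPKM in DMSO 1 to 3. Its partner Abcg8 measured 0.390, 1.10 and 1.28 FPKM in lenvatinib 1 to 3 and at most 0.0140 FPKM with DMSO. All 3 had their lowest lenvatinib value in lenvatinib 1, and no groups overlapped. With the filter lowered to a mean of 0.25 FPKM, Abcg5 passed in limma (adjusted p = 0.0283 over 14170 genes), while Npc1l1 (0.0850) and Abcg8 (0.0758) did not. The DMSO means were 0.0388 FPKM for Abcg5, 0.0358 FPKM for Npc1l1 and 0.00921 FPKM for Abcg8. These genes thus reached the lowered filter only through their lenvatinib libraries, and nothing is read from their p-values.

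No other apolipoprotein gene passed the test. Of 15 listed, 8 were tested and 0 passed in limma, with 2 at an unadjusted p below 0.05 and a median log2 difference of -0.04. Apoe, which macrophages and other cells express, measured 137, 149 and 149 FPKM in lenvatinib 1 to 3 and 311, 220 and 212 FPKM in DMSO 1 to 3, with no overlap (log2 difference -0.75, limma adjusted p = 0.0725). It passed without DMSO 1, without lenvatinib 1 and with sample weights. Macrophage markers were lower with lenvatinib too, with sums of 196, 143 and 142 FPKM in lenvatinib 1 to 3 against 341, 370 and 386 FPKM in DMSO 1 to 3, and all 8 of 8 markers past the test. The count was 3 with libraries 2 and 3 as a random block, 3 without any 1 of DMSO 2, DMSO 3, lenvatinib 2 and lenvatinib 3, 6 without DMSO 1 and 8 without lenvatinib 1. It was 0 with libraries 2 and 3 averaged, 1 with the replicate block and 6 with no filter. The part of macrophages in the Apoe level was not tested. Apod, a lipocalin, measured 10.9, 7.96 and 7.41 FPKM in lenvatinib 1 to 3 and 6.24, 3.16 and 3.63 FPKM in DMSO 1 to 3. Apobr, a receptor for apolipoprotein B particles, measured 1.70, 0.598 and 0.777 FPKM in lenvatinib 1 to 3 and 1.46, 1.78 and 1.30 FPKM in DMSO 1 to 3, with overlap. Apoa2, the second protein of high density lipoprotein, was at 1.34 ± 0.488 FPKM with lenvatinib and 1.31 ± 0.281 FPKM with DMSO, and the lipoprotein lipase activator gene Apoc2 stayed at or below 0.0947 FPKM in every library.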

How the data were processed

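Total RNA of mouse colon was sequenced in 6 libraries, 3 with lenvatinib and 3 with DMSO. The deposited FPKM values were computed by the authors; per the submitters' processing notes, HTSeq and build GRCm39 were used. Which aligner, annotation, strand setting and filters were used is not given in the sources used here. All 6 columns were used, with groups taken from the labels. Whole reads were recovered from the FPKM steps for 23951 of 23951 genes above 0 (100%, within 0.01 reads); their sums lay within 0.340% of the totals implied by the steps. Counting intervals are exact and cover counting error only.

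The 11774 genes whose average over all libraries reached 1 FPKM were tested on log2(FPKM + 1) with limma 3.58.1 in R 4.3.3 (trended, robust prior, two-sided, Benjamini-Hochberg, threshold 0.05). The p-values measure the spread between libraries, which may be technical for libraries 2 and 3. Tested on simulated data for this comparison (11774 genes), the test recovered 100% of 100 genes changed by a factor of 2 and 100% of 100 changed by a factor of 4, with 10 false calls, for independent libraries.

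The 10 genes, lists, named genes and tests were chosen with earlier results of these data known. Named are the 10 genes, list genes past the test and up to 3 more per list by unadjusted p (those of marker lists are mostly given as sums). Values of some listed regulators and 1 searched motif are not reported here. Figures used matplotlib 3.10.9, and summaries pandas 2.3.3, numpy 2.4.6 and scipy 1.17.1. The reference at hand was of build GRCm38.p6, so it gave only promoter windows and gene order.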

Additional observations from a re-analysis of the deposited data

How the results depend on the processing

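Across 18 alternatives the direction of Apoa1, Apoa4, Apoc3, Apob, Mttp, Mogat2, Dgat1, Dgat2 and Fabp2 was kept wherever a value could be computed. A smaller pseudocount moved low genes most: with 0.1 and 0.01 the log2 differences were 5.78 and 6.16 for Apoa1, 2.30 and 3.27 for Apoa4, 1.81 and 3.82 for Apoc3, 2.97 and 3.28 for Mttp, and 0.98 and 1.00 for Mogat2. With voom on recovered reads they were 6.20 for Apoa1, 3.38 for Mttp, 1.08 for Mogat2 and 0.35 for Dgat1. Leaving out 1 library at a time gave 3.71 to 4.98 for Apoa1, 0.63 to 0.76 for Apoa4, 0.29 to 0.66 for Apoc3, 0.47 to 0.67 for Apob, 1.64 to 1.72 for Mttp, 0.80 to 0.94 for Mogat2, 0.21 to 0.30 for Dgat1, 0.14 to 0.27 for Dgat2, -0.24 to 0.06 for Fabp1 and -0.41 to -0.06 for Fabp2.

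The counts of calls depended on the fit. Leaving out 1 library gave 44 to 4456 genes (main 239), 0 to 18 pathway genes (main 2), 0 to 3 other apolipoproteins (main 0), 8 to 17 small intestinal markers (main 13) and 1 to 6 of the 10 genes (main 3); the highest count of genes was without lenvatinib 1, the lowest without DMSO 3. Sample weights gave 7582, 35, 4, 21 and 7. Libraries 2 and 3 averaged gave 4, 0, 0, 1 and 0. Libraries 2 and 3 as a random block, chosen after seeing the data, gave 46 genes, 1 pathway gene, 10 small intestinal markers and 1 of the 10 genes. No filter gave 140 genes, and median-ratio scaling, quantile normalization and voom each gave 4 pathway genes. Deviations of same-numbered libraries from their group means correlated at -0.20, -0.16 and -0.15, and 0 of 6 libraries were closest to their own number. As libraries 2 and 3 of a group are nearly alike, these values mostly reflect library 1 against the other libraries. They cannot show whether libraries 2 or 3 are paired between the groups. The replicate block gave 29 genes, 0 pathway genes, 0 other apolipoproteins, 6 small intestinal markers and 1 of the 10 genes. The cause of these differences was not tested.

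Among uncalled marker genes, Hp turned to -0.54 with sample weights and ran from -0.15 (without lenvatinib 1) to 1.28 with 1 library left out, Plin1 to -0.15 with sample weights, Fabp4 to -0.28 with sample weights with a range of -0.037 (without lenvatinib 1) to 0.54, and Cela1 to 0.057 (median-ratio scaling), 0.027 (quantile), 0.18 (weights) and 0.056 (voom) with a range of -0.13 to 0.17 (highest without lenvatinib 1). Depth limits Apoc3, Fabp1 and DMSO levels of Apoa4, which rest on 0 to 23 reads per library.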

Other observations

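Ces1g, a lipid-handling carboxylesterase gene of the lipid droplet list outside the naming rule and picked after its values were seen, measured 36.2, 142 and 141 FPKM in lenvatinib 1 to 3 and 66.8, 104 and 105 FPKM in DMSO 1 to 3. Library 1 was the lowest of each group, and the mean difference was near 0 (log2 0.00, SE 0.55). Cd36, a fatty acid uptake receptor, had its highest value in lenvatinib 1, at 12.5 FPKM, against 7.24 and 6.92 FPKM in lenvatinib 2 and 3 and 5.35 to 7.06 FPKM in DMSO libraries.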
